A study of Mus musculus with 316 samples.

Results

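The 10 genes described here encode proteins that neutrophils carry in their granules or cytosol. They are S100a8 and S100a9 (the subunits of calprotectin), Ngp, Camp, Ltf and Lcn2 (secondary granule proteins), and Elane, Ctsg, Mpo and Prtn3 (primary granule proteins). They were found by symbol among the 21970 mouse gene rows of the deposited table, and all 10 were present. They were chosen by expression values measured in these same cells, so every level and difference between groups below is a description and none was tested.

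Single mouse cells had been profiled by polyA RNA sequencing. There were 49 Eng_ES-HSC cells, 95 Eng_BM-HSC cells, 94 FL_HSC cells and 78 ESC cells. Eng_ES-HSC cells are labelled as haematopoietic stem cells (HSC) made from embryonic stem cells and then engrafted, Eng_BM-HSC cells as HSC from bone marrow that had engrafted, FL_HSC cells as HSC of fetal liver, and ESC as embryonic stem cells. No strain, age, host, allele, sort gate or culture is given in the labels, and the series title names Notch activation in the making of the ESC-derived cells. The labels give each group 1 library code of its own, and each group was treated as 1 sample, so cell type and library cannot be told apart, and no p-value is given.

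Neutrophils make their granules in a fixed order as they mature in the marrow. Primary (azurophil) granule proteins such as myeloperoxidase and the serine proteases are made by promyelocytes, secondary (specific) granule proteins such as lactoferrin by the later myelocytes and metamyelocytes, and calprotectin fills the cytosol of the maturing cell and of monocytes. Myeloperoxidase transcripts are also known from early myeloid progenitors, before granules form.

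Levels are TPM (a transcript's share of its cell's total, on a fixed scale), which are corrected for transcript length. A gene counted as detected in a cell at a TPM of 1 or more. Cells with at least 1000 detected genes were kept, which left 21 cells of Eng_ES-HSC, 76 of Eng_BM-HSC, 87 of FL_HSC and 77 of ESC after near-identical cells had been averaged. The median gene number of the kept cells was 1609 in Eng_ES-HSC, 2585 in Eng_BM-HSC, 4233 in FL_HSC and 5433 in ESC. The filter left out 26 of 47 Eng_ES-HSC cells, so the counts are also given over all 47. A gene at 0 in every kept cell allows a share of cells of up to 14.3% for Eng_ES-HSC, 3.95% for Eng_BM-HSC, 3.45% for FL_HSC and 3.90% for ESC. These limits and the 95% Clopper-Pearson intervals below cover counting error only.

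The labelled cell type was checked against defining markers. Of 11 HSC and progenitor markers, Mecom, Meis1, Procr and Erg had no value above 0 in any of the 21 kept Eng_ES-HSC cells. Their summed level per cell ran from 0 to 7219 TPM (median 11.7) in Eng_ES-HSC, against 11.6 to 6912 TPM (median 1079) in Eng_BM-HSC and 6.16 to 23375 TPM (median 900.2) in FL_HSC. Of 8 neutrophil markers outside the 10 genes, 7 were detected in at least 1 Eng_ES-HSC cell and Mmp9, the gelatinase of late granules, in 0. Cd177 was detected in 5 of 21 Eng_ES-HSC cells, Cebpe in 4, Mmp8 in 2, and Ly6g and Retnlg in 1 each. Csf3r, the receptor for granulocyte colony-stimulating factor, went the other way, with 7 of 21 Eng_ES-HSC cells against 49 of 76 Eng_BM-HSC cells. Cxcr2, a chemokine receptor of neutrophils, did not mark Eng_ES-HSC, since it was detected in 18 of 21 Eng_ES-HSC, 63 of 76 Eng_BM-HSC, 60 of 87 FL_HSC and 77 of 77 ESC cells, with a mean of 46.4 TPM in Eng_ES-HSC and 184.8 TPM in ESC.

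The genes of a class lie partly side by side. On GRCm38, with GENCODE M21 genes, S100a8 is at chr3:90668978-90670035 on the plus strand and S100a9 at chr3:90692632-90695721 on the minus strand, 22.6 kb apart. Prtn3 (chr10:79874476-79883174) and Elane (chr10:79886247-79888215) both lie on the plus strand, 3.1 kb apart. Camp (chr9:109847379-109849617, minus strand), Ngp (chr9:110419747-110423012, plus strand) and Ltf (chr9:111019271-111042767, plus strand) lie in a row on chromosome 9, with gaps of 570.1 and 596.3 kb. Lcn2 (chr2:32384633-32388252, minus strand), Mpo (chr11:87793581-87804413, plus strand) and Ctsg (chr14:56099881-56102574, minus strand) stand apart.

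Promoters of 2 primary and 2 secondary granule genes are printed as examples of short motifs in the 250 bases before the RefSeq start on GRCm38.p6. Capitals mark GAGGAA or its reverse complement TTCCTC, an ETS type motif of the kind bound by PU.1, and TTGCNNAA or its reverse complement TTNNGCAA, a C/EBP type motif. The windows are chr10:79886062-79886311 for Elane, chr11:87793534-87793783 for Mpo, chr9:110419558-110419807 for Ngp and chr9:111019042-111019291 for Ltf, all on the plus strand, and each is written 5′ to 3′.
Elane: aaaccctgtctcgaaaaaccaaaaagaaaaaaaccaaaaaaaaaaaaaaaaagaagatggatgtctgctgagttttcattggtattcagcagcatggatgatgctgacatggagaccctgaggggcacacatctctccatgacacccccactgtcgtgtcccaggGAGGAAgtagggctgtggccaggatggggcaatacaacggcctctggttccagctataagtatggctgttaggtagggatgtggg
Mpo: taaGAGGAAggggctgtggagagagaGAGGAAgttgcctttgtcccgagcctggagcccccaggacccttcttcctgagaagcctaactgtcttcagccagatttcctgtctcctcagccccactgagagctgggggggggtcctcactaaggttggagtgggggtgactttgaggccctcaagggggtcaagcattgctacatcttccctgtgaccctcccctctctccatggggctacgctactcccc
Ngp: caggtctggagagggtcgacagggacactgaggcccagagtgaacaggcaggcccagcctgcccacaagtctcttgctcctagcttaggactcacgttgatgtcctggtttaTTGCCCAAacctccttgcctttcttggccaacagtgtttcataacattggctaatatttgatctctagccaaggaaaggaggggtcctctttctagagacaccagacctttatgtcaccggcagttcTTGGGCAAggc
Ltf: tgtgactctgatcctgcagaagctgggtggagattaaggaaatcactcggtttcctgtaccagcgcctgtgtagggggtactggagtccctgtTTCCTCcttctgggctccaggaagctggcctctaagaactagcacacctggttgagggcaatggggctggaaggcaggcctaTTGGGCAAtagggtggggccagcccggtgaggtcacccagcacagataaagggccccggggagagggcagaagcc
Elane has 1 GAGGAA, at 85 bases before the start, and Mpo has 2, at 224 and 247 bases. Ngp has 2 C/EBP type matches, at 11 and 138 bases. Ltf has 1 of each motif, the ETS type at 157 and the C/EBP type at 75 bases before the start.

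All 10 genes matched the RefSeq table. RefSeq starts can differ from the GENCODE starts given above. Only the S100a9 and Ctsg windows lay wholly outside the GENCODE gene. Those of Prtn3 and Lcn2 lay wholly inside it, and the others ran past its start. The ETS type motif was in the windows of 7 of the 10 genes, including all 4 primary granule genes and also S100a8, Ltf and Lcn2, against 23.3% of 32851 promoters. The C/EBP type motif was in 4 of the 10, namely S100a9, Ngp, Ltf and Lcn2, against 9.56% of promoters. Ltf and Lcn2 held both, and Camp, also a secondary granule gene, held neither. TGTGGT (RUNX type, both strands) was in the windows of S100a9 and Ctsg, against 14.1% of promoters, and TATAAA (both strands) in those of S100a8 and Ctsg, against 12.4%. No match of 1 motif overlapped a match of another in these windows, and a match is not a bound site.

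The calprotectin subunits were the most widely detected of the 10 genes in Eng_ES-HSC. S100a8, the smaller subunit, was listed at 0 to 238144 TPM over the 21 kept Eng_ES-HSC cells, with a median of 661 TPM, against 0 to 797 TPM with a median of 0 in Eng_BM-HSC, and it was listed at 0 in all FL_HSC and ESC cells. S100a9, its partner, ranged from 0 to 256334 TPM in Eng_ES-HSC with a median of 22.7 TPM, against 0 to 90.2 TPM with a median of 0 in Eng_BM-HSC, and was also listed at 0 in all FL_HSC and ESC cells. The engrafted groups overlapped, since 12 of the 21 Eng_ES-HSC cells had S100a9 at 87.4 TPM or less, within the range of Eng_BM-HSC, and the median Eng_ES-HSC level of S100a8 was also below the highest of Eng_BM-HSC. Each gene was detected in 17 of 21 Eng_ES-HSC cells (81%, 58.1% to 94.6%). In Eng_BM-HSC, S100a8 was detected in 2 and S100a9 in 3 of 76 cells.

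Within Eng_ES-HSC the calprotectin genes did not form 1 level. S100a8 was listed at 0 in 4 cells, lay between 4.04 and 15.2 TPM in 5 cells, and was at 303.7 TPM or more in 12 cells. S100a9 was listed at 0 in 4 cells, lay between 2.82 and 87.4 TPM in 8 cells and was at 1949 TPM or more in 9 cells. No kept cell lay in the gap between those ranges for either gene. The gap for S100a9 was not empty over all 47 cells, where 22 had it at 100 TPM or more and 19 at 1000 TPM or more. Both genes were detected in 16 of the 21 cells (76.2%, 52.8% to 91.8%), and both were at 100 TPM or more in 9 (42.9%).

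The balance between the subunits differed from cell to cell. Over the 16 kept cells with both, the ratio of S100a9 to S100a8 TPM ran from 0.0323 to 15 with a median of 1.21, and it lay between 0.5 and 2 in 10 cells. In the 3 cells with the highest calprotectin, S100a8 and S100a9 were close. Cell 22 had 238144 TPM of S100a8 and 256334 TPM of S100a9, cell 15 had 161458 and 208125 TPM, and the averaged cells 33 and 36 had 70447 and 79807 TPM. Cell 7 had 1290 TPM of S100a8 and 19390 TPM of S100a9, while cell 3 had 1019 and 87.4 TPM. Over all 31 cells with both genes, including those under 1000 genes, the ratio ran from 0.000885 to 98.8, with 14 between 0.5 and 2.

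**Figure D1:**
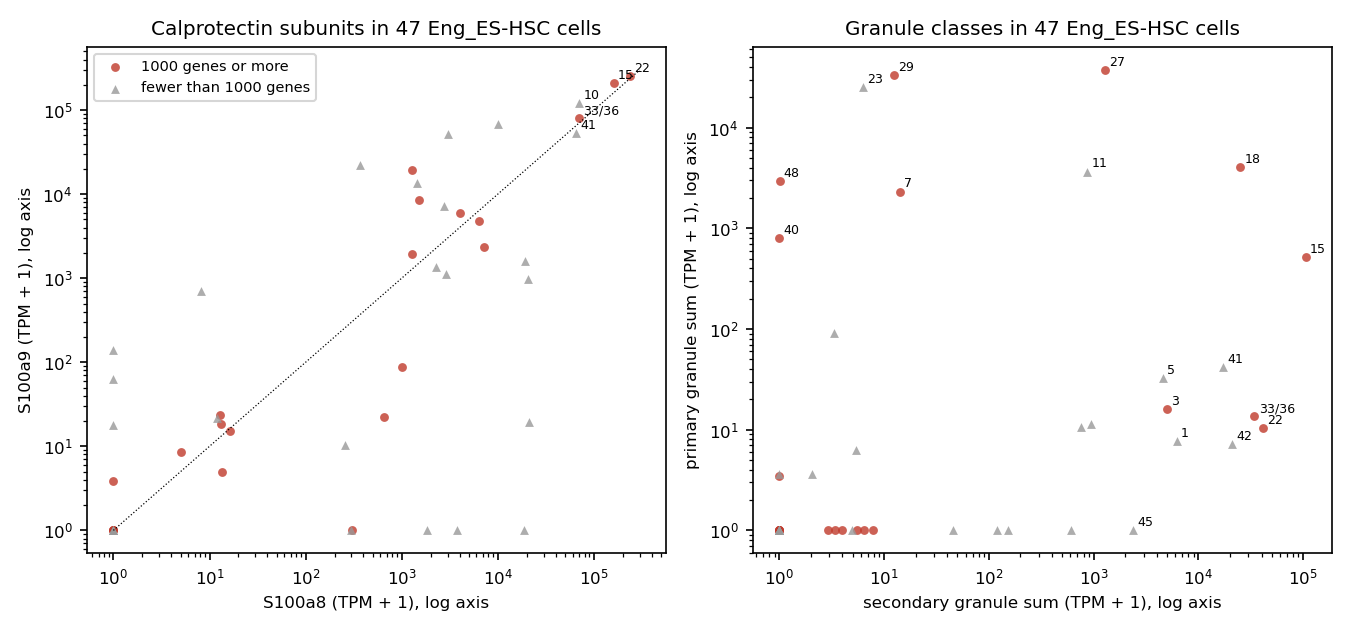
Left, S100a9 against S100a8 (TPM + 1, log axes) in the 47 Eng_ES-HSC cells, with a dotted line of equal levels. Right, the summed primary against the summed secondary granule genes (TPM + 1, log axes) in the same cells. Each point is 1 cell, with cells under 1000 genes marked apart. The subunits lie near the line in the cells highest in both, and the granule sums show cells high in 1 class, in both or in neither.

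Of the secondary granule genes, Ngp and Camp were found widely and Ltf and Lcn2 narrowly. Ngp, a cystatin-like granule protein, ranged from 0 to 48063 TPM (median 1.61) in Eng_ES-HSC and was detected in 11 of 21 cells (52.4%, 29.8% to 74.3%), against 3 of 76 Eng_BM-HSC cells, with a highest level of 1317 TPM, 0 of 87 FL_HSC cells and 1 of 77 ESC cells. Camp, the cathelicidin antimicrobial peptide, ranged from 0 to 49453 TPM (median 0) and was detected in 9 of 21 Eng_ES-HSC cells (42.9%, 21.8% to 66%), against 2 of 76 Eng_BM-HSC cells, with a highest level of 1194 TPM, 0 of 87 FL_HSC cells and 1 of 77 ESC cells. Most detections of Ngp were faint, since only 3 of its 11 cells reached 100 TPM, while Camp did so in 6 of its 9.

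Ltf, which encodes the iron-binding lactoferrin, was detected in 3 of 21 Eng_ES-HSC cells (14.3%, 3.05% to 36.3%), at 1241 TPM in cell 15, 1581 TPM in cells 33 and 36 and 7864 TPM in cell 22. Lcn2, which encodes the siderophore-binding lipocalin of the same granules, was detected in the same 3 cells, at 6813, 4143 and 7465 TPM. These 3 cells were also the 3 with the highest S100a8 and S100a9, and the only kept cells with Ngp at 100 TPM or more. Ltf and Lcn2 stood at 0 in every kept Eng_BM-HSC, FL_HSC and ESC cell.

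The primary granule genes were spread over a partly different set of Eng_ES-HSC cells. Elane, neutrophil elastase, was detected in 7 of 21 Eng_ES-HSC cells (33.3%, 14.6% to 57%), with a range of 0 to 9338 TPM, against 0 of 76 Eng_BM-HSC, 0 of 87 FL_HSC and 1 of 77 ESC cells (67.2 TPM). Ctsg, the protease cathepsin G, was detected in 7 of 21 Eng_ES-HSC cells, with a range of 0 to 31259 TPM, and was listed at 0 in all kept cells of the other 3 groups. Elane and Ctsg shared 5 cells. Each of these proteases was thus detected in a minority of Eng_ES-HSC cells and in hardly any cell of the other groups.

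Mpo and Prtn3 differed from those proteases in that fetal liver cells carried them too. Mpo, myeloperoxidase, was detected in 8 of 21 Eng_ES-HSC cells (38.1%, 18.1% to 61.6%), 12 of 76 Eng_BM-HSC cells (15.8%, 8.43% to 26%), 47 of 87 FL_HSC cells (54%, 43% to 64.8%) and 2 of 77 ESC cells. Its highest level was 14566 TPM in Eng_ES-HSC, 1608 TPM in Eng_BM-HSC, 836 TPM in FL_HSC and 1.69 TPM in ESC. The order by share and the order by highest level therefore put Eng_ES-HSC and FL_HSC in opposite places. Their intervals for the share of cells overlapped.

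Prtn3, proteinase 3, was detected in 3 of 21 Eng_ES-HSC cells (14.3%, 3.05% to 36.3%), 4 of 76 Eng_BM-HSC cells (5.26%, 1.45% to 12.9%), 18 of 87 FL_HSC cells (20.7%, 12.8% to 30.7%) and 1 of 77 ESC cells. The 3 Eng_ES-HSC cells had 3699 TPM (cell 29), 489 TPM (cell 27) and 12.5 TPM (cells 33 and 36). The group's mean of 200 TPM thus rests mostly on cell 29. The highest level elsewhere was 39.7 TPM in Eng_BM-HSC, 527 TPM in FL_HSC and 5.59 TPM in ESC.

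**Figure D2:**
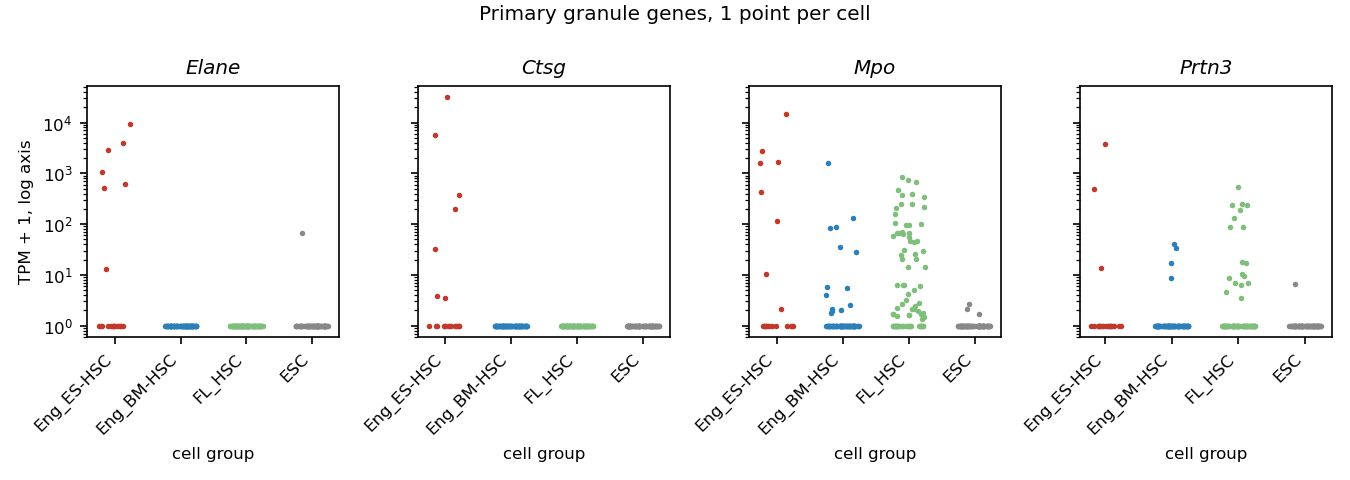
Levels of the 4 primary granule genes (TPM + 1, log axis) in the kept cells of each group, with 1 point per cell. Elane and Ctsg points above the baseline belong to Eng_ES-HSC apart from 1 ESC cell with Elane, while Mpo and Prtn3 also rise above it in many FL_HSC cells.

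As differences of mean log2(TPM + 1), 9 of the 10 genes lay at least 1 above Eng_BM-HSC in Eng_ES-HSC, the exception being Prtn3, where 2.22% of the 13239 genes compared did. All 10 genes passed the filter of a mean of 1 TPM in some group, and Ltf, Lcn2, Elane and Ctsg passed it through Eng_ES-HSC alone. The genes had been listed for this very contrast, so nothing is read from the count. The differences were 7.62 for S100a8, 7.26 for S100a9, 3.995 for Camp, 2.81 for Ngp, 1.80 for Lcn2 and 1.61 for Ltf. Among the primary granule genes they were 3.27 for Elane, 2.49 for Ctsg, 2.49 for Mpo and 0.94 for Prtn3. The calprotectin genes thus stood farthest from the marrow cells and Prtn3 nearest.

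Against FL_HSC, 8 of the 10 genes lay at least 1 higher in Eng_ES-HSC, where 2.26% of all genes compared did, and the 2 others were Mpo and Prtn3. Mpo differed by 0.26 and Prtn3 by 0.13. These small differences hold for the mean of log2(TPM + 1) and not for mean TPM. Mean TPM was 1011 in Eng_ES-HSC against 69.7 in FL_HSC for Mpo, and 200 against 20.95 for Prtn3. S100a8 differed by 7.86 and S100a9 by 7.48. Both comparisons used the same Eng_ES-HSC cells. Against ESC, all 10 lay at least 1 higher in Eng_ES-HSC, where 2.23% of genes did. Since Ltf, Lcn2, Elane and Ctsg passed the filter through Eng_ES-HSC alone, nothing is read from the counts against FL_HSC and ESC.

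Among the other groups, 1 of the 10 genes was lower by at least 1 in Eng_BM-HSC than in FL_HSC, namely Mpo, where 29.1% of all genes compared were, and its difference was -2.22. None of the 10 was higher by that much, where 1.84% of genes were. In Eng_BM-HSC against ESC, 0 of the 10 were higher by at least 1, where 3.22% of genes were. In FL_HSC against ESC, Mpo and Prtn3 were, where 10.7% of genes were. Outside Eng_ES-HSC, the differences of this size in mean log2(TPM + 1) were thus limited to Mpo and Prtn3. With log2 of the mean TPM, more of the 10 were higher in Eng_BM-HSC than in FL_HSC or ESC, as given in the closing section. Nothing is read from these small counts.

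**Figure D3:**
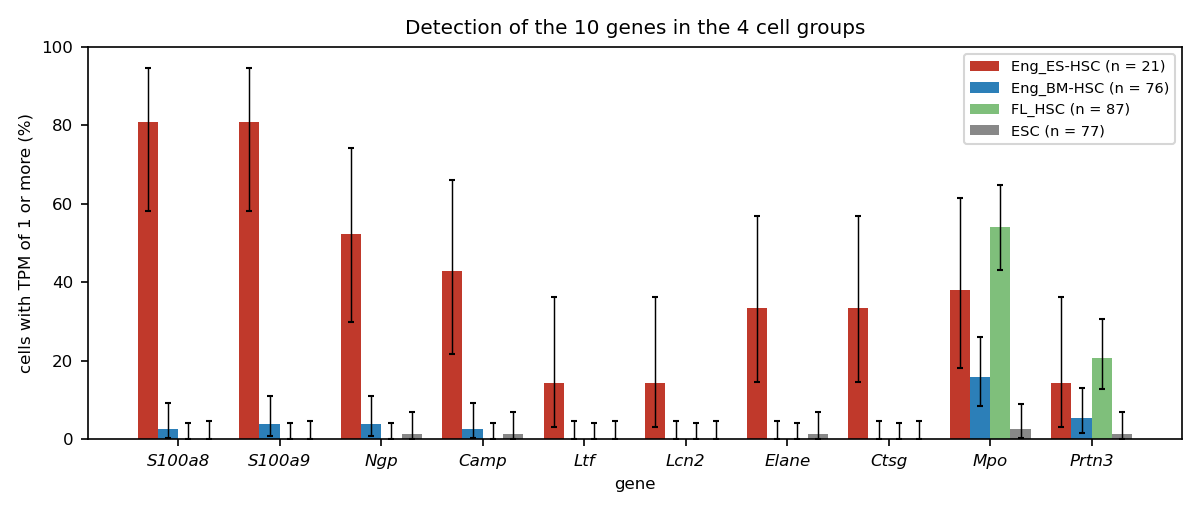
Share of kept cells with a TPM of 1 or more (%) for each of the 10 genes, by group, with exact 95% intervals for counting error. Bars are highest in Eng_ES-HSC at 81% for S100a8 and S100a9, and FL_HSC has bars for Mpo (54%) and Prtn3 (20.7%) alone.

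Taken cell by cell, 19 of the 21 kept Eng_ES-HSC cells held at least 1 of the 10 genes, 8 held 5 or more, and 0 held all 10. Cells 16 and 49 held none. Of the 3 classes, calprotectin was found in 18 cells, any secondary granule gene in 14 (66.7%) and any primary granule gene in 11 (52.4%). All 3 classes were found together in 8 cells (38.1%), calprotectin with secondary genes alone in 5, calprotectin with primary genes alone in 3, and calprotectin alone in 2. Cell 9 had a secondary gene without calprotectin, Ngp at 5.37 TPM, and 0 kept cells had a primary gene without calprotectin, against 1 of all 47.

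Most cells with a granule gene also had calprotectin. Among the kept cells, all 7 cells with Elane, all 7 with Ctsg, all 8 with Mpo, all 3 with Prtn3, all 3 with Ltf and all 3 with Lcn2 also had both S100a8 and S100a9, beside 16 of all 21 cells. Ngp was found with S100a8 in 10 of its 11 cells and Camp in 8 of its 9. Over all 47 cells, S100a8 was found in 14 of the 15 cells with Ctsg and S100a9 in 12 of the 13 with Mpo. The reverse did not hold. Elane was found in 41.2% and Ltf in 17.6% of the 17 cells with S100a8, beside 33.3% and 14.3% of all 21 cells. With Elane in 7 cells and Ltf in 3, these shares could not have been higher. At levels of 100 TPM or more, calprotectin was found in 12 cells, and cell 40 was the 1 cell that passed 100 TPM in a primary gene (Ctsg 372 TPM, Mpo 433 TPM) with both calprotectin genes lower, at 12.2 TPM of S100a8 and 17.3 TPM of S100a9.

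**Figure D4:**
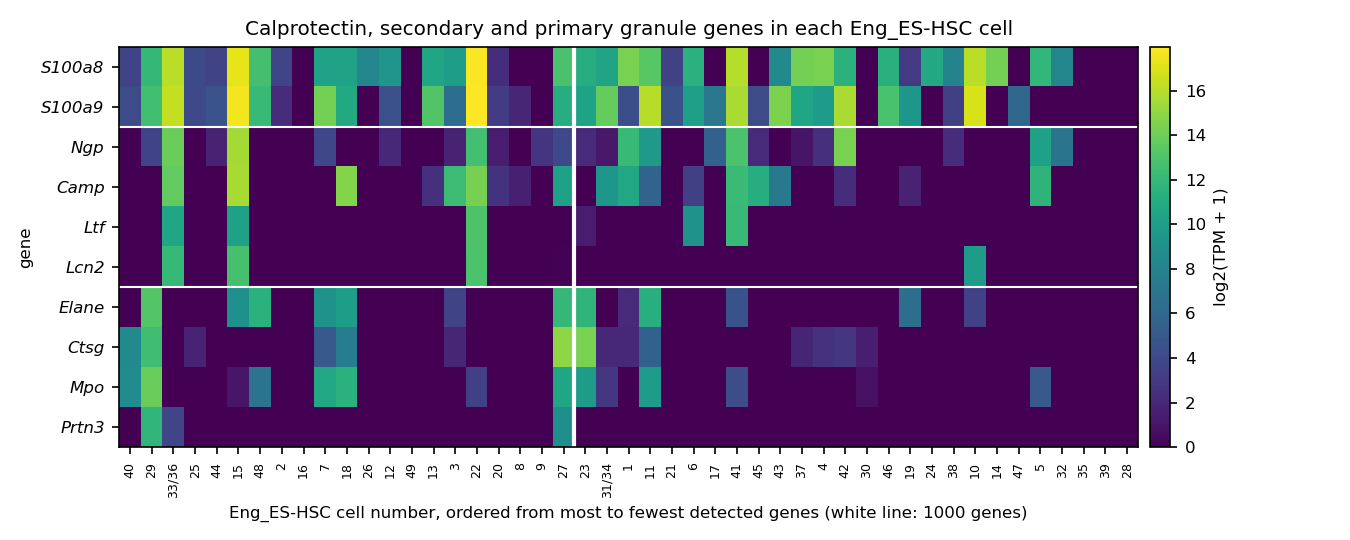
Levels as log2(TPM + 1), shown by colour, of the 10 genes (rows) in each of the 47 Eng_ES-HSC cells (columns), ordered from most to fewest detected genes, with a white line at 1000 genes. The S100a8 and S100a9 rows are filled on both sides of the line, the Ltf and Lcn2 rows in few cells, and the primary rows in columns both with and without strong secondary levels.

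High levels of the granule classes both occurred apart and together. At 100 TPM or more, all 4 secondary genes were found in 3 cells (15, 22, and 33 with 36) and at least 2 primary genes in 6 cells, and 0 of 21 cells had at least 2 of each, which allows a share of up to 14.3%. Over all 47 cells the count was also 0, which allows up to 6.38%. This combination was looked at after the values had been seen. At the detection level of 1 TPM, 3 of 21 cells had at least 2 of each class. Of the 6 cells with any secondary gene at 100 TPM or more, 3 also had a primary gene at that level, beside 7 of all 21 cells. Over all 47 cells it was 4 of 17, beside 9 of 47. The counts are small and show no separation of the classes.

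Cell 29 carried the fullest primary set. It had 9338 TPM of Elane, 5573 TPM of Ctsg, 14566 TPM of Mpo and 3699 TPM of Prtn3, with 4048 TPM of S100a8 and 6019 TPM of S100a9. Its secondary genes were Ngp at 11.3 TPM and Camp, Ltf and Lcn2 listed at 0. It also had 3010 TPM of Ms4a3, a membrane protein of granulocyte and monocyte progenitors, 133 TPM of Prss57, another azurophil granule protease, 104 TPM of Myb, a progenitor transcription factor, and 18.3 TPM of Gfi1, a repressor needed for neutrophil formation. Cell 29 was thus high in all 4 primary genes and had the highest Ms4a3 and Myb of the kept Eng_ES-HSC cells. Its Myb was nonetheless below the Eng_BM-HSC mean of 173 TPM. Its Gfi1 was below the Eng_BM-HSC mean of 49.6 TPM, but Gfi1 was detected in only 9 of those 76 cells, at up to 2595 TPM. Its Prss57 was below the highest Eng_ES-HSC level of 1343 TPM.

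Cell 27 also had all 4 primary genes, with 4017 TPM of Elane, 31259 TPM of Ctsg, 1622 TPM of Mpo and 489 TPM of Prtn3. It differed from cell 29 in having 1269 TPM of Camp and 18971 TPM of the adult globin Hba-a2. Cell 18 had 25147 TPM of Camp beside 1044 TPM of Elane, 193 TPM of Ctsg and 2799 TPM of Mpo, and it too had Hba-a2 (2239 TPM). Cells 18 and 27 were 2 of the 3 kept cells in which a secondary and a primary gene both reached 100 TPM.

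Cell 15 was the other of them and carried the largest secondary load. It had 48063 TPM of Ngp, 49453 TPM of Camp, 1241 TPM of Ltf and 6813 TPM of Lcn2, with 514 TPM of Elane, 1.12 TPM of Mpo and with Ctsg and Prtn3 listed at 0. It also had 48 TPM of Cebpe, the factor that drives secondary granule genes, 559 TPM of Csf3r, 2513 TPM of Chil3, a chitinase-like protein of neutrophil granules, and 1711 TPM of Ms4a3. Cells 33 and 36 had 15415 TPM of Ngp, 13118 TPM of Camp and 4309 TPM of Chil3, with Elane, Ctsg and Mpo listed at 0. They were the only kept Eng_ES-HSC profile with Ly6g (66.5 TPM), a surface marker of mature mouse neutrophils.

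The 10 genes took up very unequal parts of the cells. Their share of total TPM was 59.7% in cell 22, 55.2% in cell 15 and 22.3% in cells 33 and 36, with a median of 0.111% over the 21 cells. The highest share of any kept cell was 0.333% in Eng_BM-HSC, 0.112% in FL_HSC and 0.00964% in ESC. These shares are of the sum over the listed rows, which ran from 414503 to 962583 TPM per cell. Since TPM is a share of a cell's total, a cell with such a load has lower values for its other genes.

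Apart from Prtn3, each of the 10 genes was also detected in cells under 1000 genes, Lcn2 in 1 of them. Over all 47 Eng_ES-HSC cells, S100a8 was detected in 36, S100a9 in 35, Ngp in 24, Camp in 19, Ltf in 6, Lcn2 in 4, Elane in 13, Ctsg in 15, Mpo in 13 and Prtn3 in 3. Both calprotectin genes were found in 31 cells (66%), all 3 classes in 19 and no member in 5. Cell 41, with 825 genes and 68.3% of its TPM from mitochondrial genes, had 4622 TPM of Ltf, 7643 TPM of Ngp and 4789 TPM of Camp. Cell 23, with 999 genes, had 21099 TPM of Ctsg, 3449 TPM of Elane and 998 TPM of Mpo. The median mitochondrial share of kept cells was 20% in Eng_ES-HSC, 13.4% in Eng_BM-HSC, 9.31% in FL_HSC and 19.8% in ESC, and its part in these results was not tested.

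Over the 21 kept Eng_ES-HSC cells, which share a library and many zeros, rank correlations were high for some pairs of a class and for some pairs across classes. Spearman's rho was 0.91 between S100a8 and S100a9, 0.81 between Ltf and Lcn2, 0.79 between Elane and Mpo, 0.70 between Ctsg and Mpo and 0.64 between Elane and Ctsg. Over all 47 cells these pairs stood, in the same order, at 0.67, 0.61, 0.67, 0.59 and 0.51. Between classes, over the 21 cells, rho reached 0.75 for S100a8 with Lcn2 and 0.65 for S100a9 with Lcn2. Within a class it was 0.42 for Ngp with Camp, and Prtn3 had 0.45 with Elane, 0.45 with Ctsg and 0.37 with Mpo. It was lowest between Ltf and Ctsg, at -0.28, which were found in 0 common cells. Between class means of log2(TPM + 1), rho was 0.68 for calprotectin with secondary genes, 0.66 for calprotectin with primary genes and 0.47 for secondary with primary genes. Over all 47 cells these class values were 0.63, 0.61 and 0.51. As Pearson's r over the 21 cells, secondary with primary genes was 0.02, and calprotectin with primary genes was 0.44.

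Fetal liver cells held Mpo and Prtn3 without the rest. Mpo had a median of 45.2 TPM in the 47 FL_HSC cells that held it, and 14 of them were at 100 TPM or more. Prtn3 had a median of 16.8 TPM in its 18 cells, and 6 were at 100 TPM or more. The other 8 genes were listed at 0 in all 87 cells, Elane among them although it neighbours Prtn3.

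Mpo and Prtn3 were detected together in 11 fetal liver cells. These are 61.1% of the cells with Prtn3, beside Mpo in 54% of all kept FL_HSC cells, and 23.4% of the cells with Mpo, beside Prtn3 in 20.7% of all. The shares within the pair thus lay near the overall shares. At 100 TPM or more, 14 cells had Mpo, 6 had Prtn3 and 0 had both, numbers too small to read as a pattern. Cells 11, 18, 57 and 51 had the highest Mpo, at 836, 723, 667 and 468 TPM, and Prtn3 was listed at 0 in each. Cell 36 had the highest Prtn3, at 527 TPM. In Eng_ES-HSC both were detected in 2 cells, which are 25% of those with Mpo and 66.7% of those with Prtn3.

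Gene number differed between the groups, and its part in these shares was not tested. Among cells with 1000 to 3000 genes only, Mpo was detected in 35.3% of the 17 cells of Eng_ES-HSC, 10.8% of the 65 of Eng_BM-HSC, 22.2% of the 18 of FL_HSC and 0% of the 6 of ESC. Within that range the FL_HSC share was thus below the Eng_ES-HSC share, the opposite order to that over all kept cells. Both shares in that range rest on few cells. The share for Prtn3 was 5.88% in Eng_ES-HSC, 4.62% in Eng_BM-HSC, 11.1% in FL_HSC and 0% in ESC.

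In the engrafted marrow cells the 10 genes were scattered. At least 1 was detected in 22 of 76 Eng_BM-HSC cells, at least 2 in 4 cells and 5 or more in 0. S100a8 and S100a9 were found together in 0 cells. Cell 84 had 797 TPM of S100a8 and cell 49 had 409.9 TPM, both without S100a9. Cell 7 had 1317 TPM of Ngp with 1194 TPM of Camp, and cell 5 had 1608 TPM of Mpo with 39.7 TPM of Prtn3. Single high cells therefore existed in Eng_BM-HSC for a secondary pair and for a primary pair, with none of the other 8 genes beside each pair.

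Other genes of neutrophil formation were examined as lists, in the comparison of Eng_ES-HSC with Eng_BM-HSC, where the median of all genes was -0.10, 2.22% of genes were higher by at least 1 and 8.55% were lower by at least 1. Only genes past the filter on mean TPM were compared. Of 17 other secondary and gelatinase granule genes 12 passed it, of which 5 were higher and 0 lower, with a median of 0.45. The 5 were Chil3 (in 6 of 21 cells of Eng_ES-HSC and in 0 of 76 of Eng_BM-HSC), Cybb and Cyba, the membrane subunits of the NADPH oxidase, Hp, haptoglobin, and Cd177. Chil3 and Hp were listed at 0 in all kept cells of the other groups. With Cybb and Cd177 they passed the filter through Eng_ES-HSC alone, so the count gives no support. Of 7 other primary granule genes, Ms4a3 and Lyz2 (lysozyme) were higher and Cd63 was lower, with a median of 0.74. Ms4a3 averaged 362 TPM in Eng_ES-HSC, where 6 of 21 cells held it, and 1.47 TPM in Eng_BM-HSC, where 1 of 76 did.

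The remaining lists were mixed. Of 8 genes for the processing or inhibition of granule proteases, Slpi, an elastase inhibitor, was higher, while Serpinb1a, another inhibitor, and Srgn, the proteoglycan that binds proteases in granules, were lower, with a median of -0.01. Of 11 late neutrophil genes, Wfdc21 was higher and Csf3r lower, with a median of 0.37. Slpi and Wfdc21 passed the filter on mean TPM through Eng_ES-HSC alone. So did Il1b, Stfa2l1, Ly6g and Trem3 of the late neutrophil list. Their direction and that median therefore give no support. Of 10 granulopoiesis transcription factors, Cebpb was higher and Myb lower, with a median of -0.06. Cebpe, detected in 4 of 21 Eng_ES-HSC cells and 0 of 76 Eng_BM-HSC cells, differed by 0.62. Cebpe too passed the filter through Eng_ES-HSC alone. Of 8 calprotectin receptors and other S100 genes, S100a4, S100a6 and S100a13 were higher and S100a11 lower, with a median of -0.32. The S100 family thus did not move as 1 block.

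Markers of other blood cells were present in the same libraries. Of 6 erythroid markers compared, 4 were higher in Eng_ES-HSC, all of them adult globins, and their summed level ran from 0 to 37347 TPM in Eng_ES-HSC (with Alas2 and Klf1 at 0 in every cell), against 0 to 2940 TPM in Eng_BM-HSC. Of 6 T and NK markers, 3 were higher, with summed levels of 0 to 3589 TPM in Eng_ES-HSC (Ncr1 at 0) against 0 to 3632 TPM in Eng_BM-HSC (Cd3e and Cd3g at 0). Of 7 monocyte and macrophage markers, Ccr2 was higher, with summed levels of 0 to 4341 TPM in Eng_ES-HSC against 0 to 123 TPM in Eng_BM-HSC. Of 5 eosinophil, mast cell and basophil markers 0 differed by 1, of 2 B markers 1 was lower, and of 5 ESC markers 0 differed. Of 11 HSC and progenitor markers 7 were lower, of 7 neutrophil markers Cd177 was higher and Csf3r lower, and of 8 housekeeping genes 4 were lower. Cd177, and Cd3e among the T and NK markers that were higher, passed the filter on mean TPM through Eng_ES-HSC alone.

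These markers were set beside the 10 genes within the Eng_ES-HSC cells. Over the 21 cells, rho of the calprotectin mean was 0.80 with the other secondary granule list and 0.57 with the late neutrophil list. It was 0.56 with the list of calprotectin receptors and other S100 genes. With the other primary granule list it was 0.50 and with the neutrophil markers 0.44. Over all 47 cells these were, in the same order, 0.54, 0.44, 0.32, 0.33 and 0.44. Over the 21 cells rho was 0.07 with the erythroid markers, 0.02 with the monocyte and macrophage markers and -0.18 with the T and NK markers. Over all 47 cells these were 0.15, -0.11 and 0.07. Cell 26, which held 7 of 8 monocyte and macrophage markers and 16573 TPM of Lyz2, had 304 TPM of S100a8 and none of the other 9 genes. The part of globin or T cell transcripts in the levels of the 10 genes was not tested.

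The genes most like each class over the 21 cells were ranked among 2806 genes detected in at least 5 of them. For calprotectin they were Ckap4 (rho 0.75), Pgd, Intu, Chil3 (0.70), Cd177 (0.69), Gadd45a, Pi4ka and Wfdc21 (0.66). For the secondary genes they were Chil3 (0.77), Wfdc21 (0.69), Fxr1 (0.67), Mettl8, Serpinb1a, Cd177, Efhd2 and Cep19. For the primary genes they were Tcf20 (0.82), Capns1 (0.81), Wars (0.77), Ankrd13c, Gpc1, Mettl16, Tuba1a and Adarb2. When all 47 cells were ranked, 4 of the 8 calprotectin names recurred (Chil3, Ckap4, Pgd and Wfdc21), 4 of the 8 secondary names (Chil3, Fxr1, Serpinb1a and Wfdc21) and 1 of the 8 primary names (Ankrd13c). Most of these genes were detected in 5 to 10 cells, so a few cells set each value.

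Rows for reporter and selection cassettes were set beside the 10 genes. The kanamycin row was detected in Eng_ES-HSC only in cell 25 and in the averaged cells 33 and 36, where it stood at 486 TPM beside the full secondary set, against 70.1% of 77 ESC. The puromycin and hygromycin rows were detected in 0 of 47 Eng_ES-HSC cells, against 53.2% and 35.1% of ESC. The eGFP row was found in Eng_ES-HSC cells 8 and 20, whose highest value among the 10 genes was 7.61 TPM, and the YFP row in cells 8, 20 and 29. The ampicillin row was found in Eng_ES-HSC cells 1 and 7, at up to 3.73 TPM, and the neomycin row in cell 11, at 4.08 TPM. These rows were not particular to Eng_ES-HSC. FL_HSC cell 21 held YFP at 20.25 TPM, eGFP at 38.6 TPM and ampicillin at 49.1 TPM. Eng_BM-HSC cell 91 held ampicillin at 34.8 TPM. The YFP, eGFP, ampicillin and neomycin rows were each detected in 0 of 77 ESC. Some cells with high neutrophil genes thus held a cassette row and most did not, and a row at 0 sets no limit on the origin of a cell.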

How the data were processed

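The authors deposited natural log values, ln(TPM + 1), where the base and constant were read from the values themselves, as no label gives them. The submitters' processing notes name HISAT 0.1.6, Salmon 0.3.2 and GRCm38 but no roles. Which annotation and kit were used is not given in the sources used here. Values were turned back to TPM, which gave 414503 to 962583 per cell, and then to log2(TPM + 1), which understates differences of low genes. TPM keeps no read depth, so the depth per cell is unknown.

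Groups follow the sample titles. Pairs within a group whose profiles had a Pearson r over 0.9 became 1 averaged profile. They were Eng_ES-HSC 31 with 34 (r = 0.989) and 33 with 36 (r = 0.973), and ESC 22 with 64 (r = 0.942), against at most 0.841 for any other pair. Of the 313 profiles, 261 with at least 1000 genes were kept. Doublets were not called. Comparisons ran over 13239 genes whose mean reached 1 TPM in some group. With no animal or culture named, each group was 1 sample and no test was run.

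The 10 genes and all lists were chosen with earlier results of these data known. The named genes were those 10, the lists, and the 8 genes with the highest Spearman rho to each class. The steps were tested on simulated data. Python 3.11.15, numpy 2.4.6, pandas 2.3.3 and scipy 1.17.1 were used. Alternatives were other pseudocounts, detection thresholds, cell filters and scalings, and odd- or even-numbered cells. Added after seeing the data were leaving out near-identical cells and cells over 50% mitochondrial.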

Additional observations from a re-analysis of the deposited data

How the results depend on the processing

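Depth is unknown and each group is 1 library, which limits every share and level. No paired analysis was possible because each group is 1 sample and no result comes from a test. Of the member differences printed between groups, 194 of 264 recomputed values stayed within 1.5 times and 70 moved further, and 0 of the called ones changed sign. Prtn3 in Eng_ES-HSC against Eng_BM-HSC, which was not called, was 2.12 with odd-numbered and -0.11 with even-numbered cells. All 3 kept Eng_ES-HSC profiles with Prtn3, cell 29 among them, fell among the odd-numbered cells. With a threshold of 100 TPM in place of 1, both calprotectin genes were found in 42.9%, any secondary gene in 28.6%, all 3 classes in 14.3% and at least 2 of each granule class in 0% of kept Eng_ES-HSC cells. At 10 TPM any secondary gene was found in 38.1%. The share with Mpo was 2.63% at 100 TPM and 7.89% at 10 TPM in Eng_BM-HSC. In FL_HSC it was 16.1% at 100 TPM, 39.1% at 10 TPM, 65.5% above 0 and 22.2% in cells with 1000 to 3000 genes. The rho of calprotectin with secondary genes was 0.78 without cells over 50% mitochondrial. As Pearson's r, calprotectin with primary genes was 0.44 and secondary with primary genes 0.022. Against Eng_BM-HSC, 294 genes lay at least 1 higher in Eng_ES-HSC, with 672 with a pseudocount of 0.1, 97 with 10 and 117 without the cell filter. Those lower numbered 1132, with 2303 with 0.1 and 364 with 10. Against FL_HSC, 299 were higher, with 644 at 0.1, 102 at 10 and 109 without the cell filter, and 4631 were lower, with 2112 at 10. Among the 10 genes, 1 was lower in Eng_ES-HSC than in FL_HSC with even-numbered cells and 0 otherwise in the alternatives run. In Eng_BM-HSC against FL_HSC, 4 were higher with log2 of the mean TPM, and 2 were lower with it or a pseudocount of 0.1. In Eng_BM-HSC against ESC, 1 was higher with 0.1 and 6 with log2 of the mean TPM. In FL_HSC against ESC, 1 in place of 2 was higher with a pseudocount of 10, with no cell filter, with at least 500 genes, with 1000 to 3000 genes and with odd-numbered cells. The causes of these shifts were not tested.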
